A study of Mus musculus with 24 samples.

Results

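Control livers of the 2 mouse cohorts of the study were compared with each other before any acetaminophen (APAP) was given. The 7 libraries, of 24 in the series, were chosen by their labels alone: 3 livers labelled NULL, from mice injected with AAV8-TBG-Null, and 4 livers labelled WT, the control mice of the LKO cohort, all at 0 h and with 1 mouse per library. The labels give 4 mice per genotype at 0 h, and the 3 NULL libraries held were analysed. Both groups served as the untreated baseline for an E2f7/E2f8 knockout, and the question asked here is how far the transcriptomes of the 2 baselines differ in their interferon, xenobiotic, lipid and zonation genes. NULL mice carried floxed E2f7 and E2f8, received an adeno-associated virus of serotype 8 at 2 months of age that holds the hepatocyte promoter TBG but no Cre, and were harvested at 2.5 months. WT mice were Cre-negative littermates of the LKO mice, on a mixed, mainly FVB background, homozygous for floxed E2f7 and E2f8 and carrying the R26R mTmG reporter, and received no virus. The same reporter was examined in livers of the AAV cohort, its controls included. The strain background of the NULL mice was not given separately in the sources used here. The mice of both groups were male, were 2.5 months old and had been fasted overnight for about 16 h. Virus, cohort, possible background and processing batch all change together between the groups and cannot be told apart, so each difference below is one between cohorts.

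The reads on genes numbered 15175140 to 17341714 per NULL library and 12665686 to 17807057 per WT library, at which 3 counts correspond to 0.168 to 0.237 CPM (counts scaled to a common library size, on TMM-adjusted totals), a limit that covers counting error only. Reads on no feature, that is on no annotated exon, made up 12.6% to 14.6% of the NULL libraries and 8.85% to 9.67% of the WT libraries, without overlap. They can lie in introns or between genes. E2f8 was at 17.3, 24.9 and 14.2 CPM in NULL and 17.6, 17.0, 15.1 and 11.0 CPM in WT livers (edgeR adjusted p = 0.395), E2f7 was too low to be tested, and Gt(ROSA)26Sor, the reporter's host locus, did not differ detectably (log2 fold change −0.02). Hepatocyte markers summed to 89100–95400 CPM in NULL and 83700–128000 CPM in WT livers, with none of 9 measured markers at 0. Over 12431 genes, the root-mean-square distance in log2 CPM was 0.422 to 0.456 between 2 NULL mice, 0.462 to 0.761 between 2 WT mice and 0.595 to 0.782 between a NULL and a WT mouse. The WT mice therefore spread more widely than the NULL mice, and some were as far from each other as from a NULL mouse. On the first principal component (42.2% of the variance), the NULL mice lay at −35.97 to −30.53 and the WT mice at 5.64 to 40.55. On the second (25.2%), WT mice 1 and 4 lay at −27.55 and −39.61 and WT mice 2 and 3 at 9.42 and 32.97.

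The fasting liver oxidizes fatty acids under the nuclear receptor PPAR-alpha, exports ketone bodies and restrains the insulin-driven synthesis of fatty acids and cholesterol by SREBP proteins. It also clears drugs through cytochrome P450 enzymes and conjugation enzymes, many of them controlled by the receptors CAR, PXR and AHR and placed near the central vein by Wnt signals, while urea synthesis and gluconeogenesis dominate near the portal vein. Interferons, which cells release on sensing viral nucleic acid, induce antiviral genes through the response element of their promoters.

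Of the 12431 genes tested, 1020 (8.21%) were called, that is, they differed at least 1.5-fold with an adjusted p-value under 0.05. Of these, 564 (4.54%) were higher and 456 (3.67%) lower in NULL livers. The values of the groups did not overlap in 27.2% of all genes, and the median log2 fold change of all genes was −0.013. Fold changes are NULL relative to WT and are given as log2 values ± SE from edgeR's fit. Levels are CPM, which are not corrected for gene length and are compared only within a gene. In bulk livers, fewer cells of a type and less RNA per cell cannot be told apart. The plot of calls by gene list shows where the called genes lay among the programs.

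**Figure D1:**
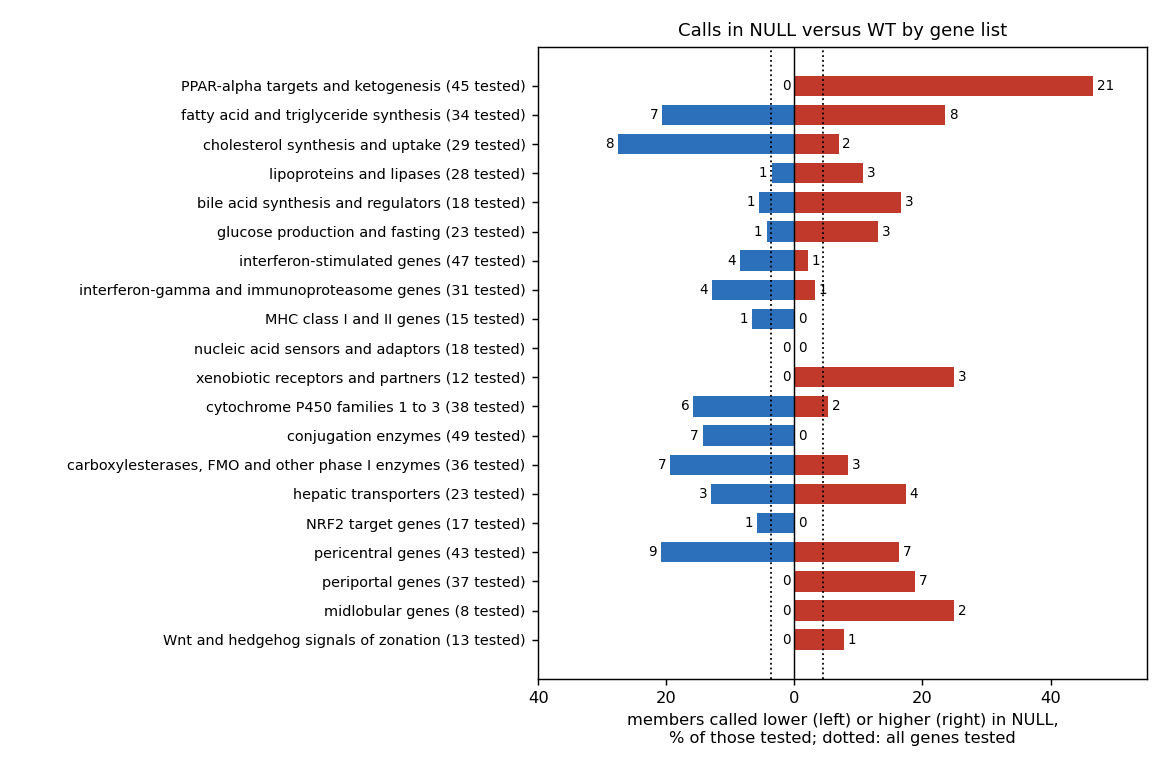
Share of the tested members of each gene list that were called lower (blue, left) or higher (red, right) in NULL livers (n = 3) than in WT livers (n = 4), in percent on the horizontal axis, with the number of genes beside each bar. The dotted lines mark the shares over all genes tested, 3.67% lower and 4.54% higher; the PPAR-alpha list reaches 46.7% higher and 0% lower.

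Genes of fatty acid oxidation and ketogenesis were higher in NULL livers. Of 45 PPAR-alpha targets and ketogenesis genes, all of which were tested, 21 (46.7%) were called higher and 0 lower, against 4.54% and 3.67% of all genes. The log2 fold change was positive in 42 of them, with a median of 0.83 against −0.013 over all genes. Ppara itself, the receptor, was at 533, 564 and 389 CPM in NULL and at 235, 278, 167 and 311 CPM in WT livers, a log2 fold change of 1.00 ± 0.22 (edgeR adjusted p = 0.0217). All 3 NULL livers lay above all 4 WT livers. Its coactivator Ppargc1a was at 34.9, 33.7 and 35.7 CPM against 9.63, 13.5, 19.6 and 22.1 CPM (1.10 ± 0.24, edgeR adjusted p = 0.0234).

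Enzymes of the peroxisomal and mitochondrial pathways moved the same way. Cpt1a, which admits long-chain fatty acids to mitochondria, was at 1072, 1011 and 785 CPM in NULL and 288, 389, 326 and 396 CPM in WT livers (1.45 ± 0.16, edgeR adjusted p = 0.00232). Ehhadh, the peroxisomal bifunctional enzyme, was at 1544, 1370.4 and 1304 CPM against 446, 305, 345 and 514 CPM (1.80 ± 0.19, edgeR adjusted p = 0.00195). In both genes the lowest NULL liver was well above the highest WT liver. Among the other called enzymes and carriers, the log2 fold change was 0.68 for the mitochondrial dehydrogenase Acadm, 0.66 for Hadhb of the mitochondrial trifunctional protein, 1.97 for the carnitine acetyltransferase Crat, 2.37 and 0.84 for the fatty acid transporters Slc27a1 and Slc27a2, 1.15 for the peroxisome division gene Pex11a, and 0.97 for Pdk4, which inhibits pyruvate dehydrogenase. The acyl-CoA thioesterases Acot1, Acot2 and Acot4 (1.64, 2.40 and 1.66) and the pantetheinase Vnn1 (1.74) were higher too. Acot1 to Acot4 lie in 1 cluster of similar genes, so the split of reads among them is uncertain.

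Among the omega-hydroxylases of the Cyp4a family, Cyp4a10 and Cyp4a14 spread widely among WT mice. Cyp4a10 was at 4444, 4379 and 4089.6 CPM in the NULL livers but at 201, 13.0, 34.2 and 749 CPM in WT mice 1 to 4 (4.11 ± 1.08, edgeR adjusted p = 0.0407). The NULL livers were close together, whereas WT mice 2 and 3 were far below WT mice 1 and 4. Cyp4a14 behaved alike, at 2586, 1732 and 1473 CPM against 50.7, 1.13, 0.639 and 388 CPM, and with that spread was not called (4.13 ± 1.54, edgeR adjusted p = 0.109). Over 19 alternative settings, its log2 fold change ran from 3.72 to 8.78 and it was called in 3. That of Cyp4a10 ran from 3.71 to 6.61, with the call lost in 4. Cyp4a32 was at 828, 710.4 and 862 CPM against 190.0, 120.5, 225 and 293 CPM (1.95 ± 0.25, edgeR adjusted p = 0.00350), and Cyp4a31 was called as well (3.19). These genes are near-identical neighbours and only uniquely mapped reads were counted, so their single levels are uncertain. WT mouse 4 was the WT mouse nearest to the NULL livers in 18 of the 21 called genes. The median over the list of log2((CPM + 0.5)/(WT mean + 0.5)) was 0.82, 0.70 and 0.65 in the NULL mice and −0.00, −0.10, −0.18 and 0.27 in WT mice 1 to 4. The plot of PPAR-alpha genes by mouse shows the separation and the spread among WT mice.

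**Figure D2:**
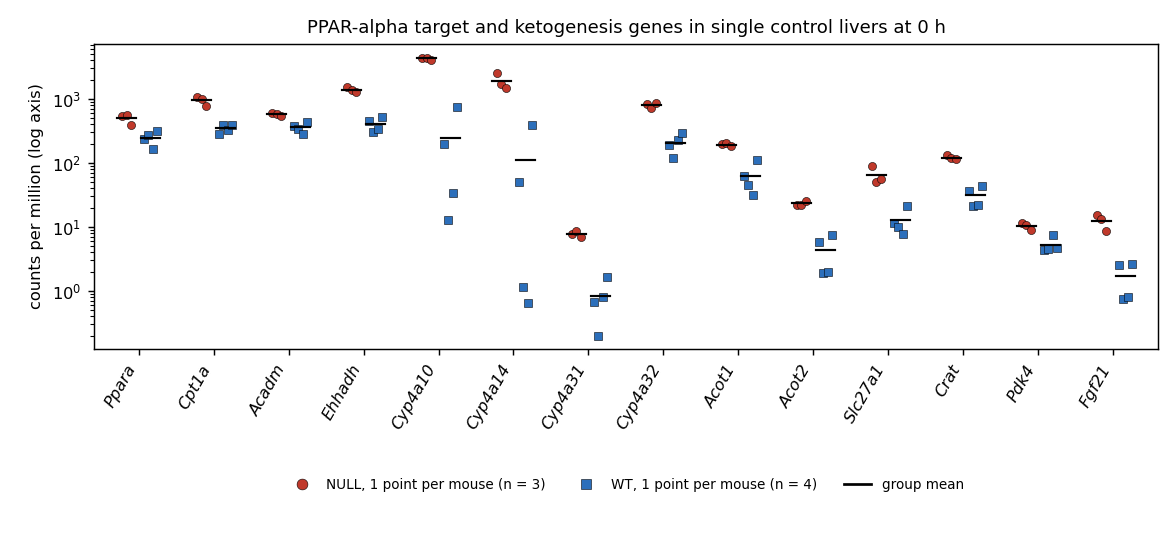
CPM (log axis) of PPAR-alpha target and ketogenesis genes in single livers at 0 h, with 1 red circle per NULL mouse (n = 3), 1 blue square per WT mouse (n = 4) and a black line at the group mean. In Cyp4a10 the NULL livers lie at 4089.6 to 4444 and the WT livers at 13.0 to 749, while Cpt1a and Ehhadh are tighter in both groups.

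The fasting hormone Fgf21, a PPAR-alpha target secreted by hepatocytes, was at 15.4, 13.5 and 8.68 CPM in NULL and 2.53, 0.732, 0.799 and 2.63 CPM in WT livers (2.86 ± 0.42, edgeR adjusted p = 0.00570). The lowest NULL liver was at more than 3 times the highest WT liver. The uncalled members with the most reads were Acaa1b, a peroxisomal thiolase, at 1739, 1816 and 2320.1 CPM against 1693, 948, 598 and 1967 CPM, and Fabp1, the liver fatty acid-binding protein, at 1053, 1195 and 1172 CPM against 2436, 2534, 719 and 2449.6 CPM. In both genes the groups overlapped (edgeR adjusted p = 0.292 and 0.160), so the list was not uniformly higher. Of the 45 genes, 31 had a promoter in the RefSeq table (GRCm38.p6), which holds 250 bases before to 50 after a gene's start. A direct repeat of the half-site of nuclear receptors with 1 base between (the DR1 motif, either strand), a search added after the data were seen, matched 1 of their 37 promoters, that of Fabp1, against 0.381% of all 32851 promoters in the table. The E-box CACGTG matched 10.8% of the list's promoters and 7.15% of all, and the sterol regulatory element core TCACNCCAC matched 5.41% and 1.24%. A match is a run of letters and does not show a bound site. The 250 bases before the start of Fgf21 (chr7:45615491-45615740, minus strand) and Ehhadh (chr16:21787835-21788084, minus strand) are shown since both genes had large differences without overlap between the groups. They run 5′ to 3′ on the gene's strand, with CACGTG in Fgf21 (bases −50 to −45 from the start) and the reverse complement of TCACNCCAC in Ehhadh (−171 to −163) in capitals.
Fgf21: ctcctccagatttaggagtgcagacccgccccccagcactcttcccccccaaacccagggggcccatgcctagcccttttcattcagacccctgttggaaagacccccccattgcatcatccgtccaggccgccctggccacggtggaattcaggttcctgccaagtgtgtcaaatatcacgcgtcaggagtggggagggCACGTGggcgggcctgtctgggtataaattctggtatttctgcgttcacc
Ehhadh: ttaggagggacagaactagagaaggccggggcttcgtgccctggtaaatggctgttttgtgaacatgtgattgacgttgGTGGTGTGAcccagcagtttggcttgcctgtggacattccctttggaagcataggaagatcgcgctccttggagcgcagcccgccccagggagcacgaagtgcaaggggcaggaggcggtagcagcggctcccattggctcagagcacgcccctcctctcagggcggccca

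Genes of insulin-driven lipid synthesis were mixed. Of 34 fatty acid and triglyceride synthesis genes tested (39 in the list), 8 (23.5%) were called higher and 7 (20.6%) lower, with a median of −0.137. The lower genes were the regulators and the first enzymes of the pathway. Srebf1, the transcription factor gene of lipogenesis, was at 44.3, 68.1 and 83.1 CPM in NULL and 548, 192, 143 and 245 CPM in WT livers (−2.12 ± 0.44, edgeR adjusted p = 0.0197). Its call was lost without NULL mouse 1, 2 or 3. Thrsp, a lipogenic nuclear protein, was at 69.6, 88.4 and 106 CPM against 569.8, 595, 421 and 214 CPM (−2.35 ± 0.33, edgeR adjusted p = 0.00482). The carbohydrate-response factor Mlxipl (−0.59), the acetyl-CoA carboxylase activator Mid1ip1 (−1.53), the cytosolic carboxylase Acaca (−0.59) and the acetoacetyl-CoA synthetase Aacs (−1.25) were lower as well, with the log2 fold change in parentheses.

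The genes called higher in that list were of several kinds. Acacb, whose malonyl-CoA restrains Cpt1a, was at 109.5, 99.4 and 78.8 CPM against 18.5, 44.9, 35.9 and 31.0 CPM (1.56 ± 0.25, edgeR adjusted p = 0.00850). Elovl5, an elongase of polyunsaturated fatty acids, was at 516, 551 and 432 CPM against 183, 102, 140.3 and 276 CPM (1.51 ± 0.28, edgeR adjusted p = 0.0135). Neither gene overlapped between the groups. The lipid droplet proteins Cidec and Plin4 (2.46 and 2.31), the lipase Pnpla2 (0.88), the acyltransferase Gpam (0.80), the elongase Elovl2 (0.60) and the desaturase Fads2 (0.88) were the other genes called higher. Cidec is also 1 of 8 adipose tissue markers, which summed to 22.4–55.9 CPM in NULL and 9.9–13.2 CPM in WT livers. Plin1 and Lep were at 0 in all 7 libraries, Adipoq was at most 0.130 CPM, and Fabp4 was at 2.58, 5.15 and 2.59 CPM against 4.29, 4.46, 5.43 and 5.56 CPM, so the difference in the sum was that of Cidec. Scd1, the uncalled member with the most reads, ranged from 681 to 1955 CPM in NULL and from 882 to 3781 CPM in WT livers (edgeR adjusted p = 0.338).

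Several cholesterol synthesis genes were lower in NULL livers. Of 29 cholesterol synthesis and uptake genes, all tested, 2 (6.9%) were called higher and 8 (27.6%) lower, and 21 had a negative log2 fold change (median −0.32). Fdps, which makes farnesyl diphosphate, was at 21.3, 15.2 and 24.4 CPM in NULL and 62.0, 68.9, 67.6 and 51.0 CPM in WT livers (−1.62 ± 0.18, edgeR adjusted p = 0.00232). Nsdhl, a later enzyme of the pathway, was at 5.51, 5.93 and 7.83 CPM against 13.5, 13.6, 17.7 and 14.7 CPM (−1.21 ± 0.18, edgeR adjusted p = 0.00617). All NULL livers were below all WT livers in both. Insig1 (−1.11), which retains the SREBP complex in the endoplasmic reticulum, was lower. So were the synthesis enzymes Cyp51, Mvd and Acat2 (−0.93, −1.02 and −0.69) and the sterol carrier Stard4 (−0.76). Hsd17b7 of the synthesis pathway, at 69.7, 60.5 and 66.4 CPM against 35.8, 27.4, 29.2 and 33.2 CPM (1.06 ± 0.13, edgeR adjusted p = 0.00263), and the lysosomal cholesterol transporter Npc1 (0.94) were higher.

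The E-box CACGTG was in 6 of the 26 promoters (23.1%) of this list's 20 genes in the table, against 7.15% of all promoters. Insig1 and Hsd17b7 are shown because both hold that hexamer, in capitals at −101 to −96 and −143 to −138, while Insig1 was lower and Hsd17b7 higher in NULL livers. The stretches are chr5:28071162-28071411 (plus strand) and chr1:169969206-169969455 (minus strand) of GRCm38.p6.
Insig1: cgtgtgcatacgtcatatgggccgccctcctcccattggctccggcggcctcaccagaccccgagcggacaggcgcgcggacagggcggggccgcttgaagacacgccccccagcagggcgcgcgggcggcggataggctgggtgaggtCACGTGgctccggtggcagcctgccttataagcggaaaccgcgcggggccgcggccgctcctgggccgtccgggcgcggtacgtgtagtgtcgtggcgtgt
Hsd17b7: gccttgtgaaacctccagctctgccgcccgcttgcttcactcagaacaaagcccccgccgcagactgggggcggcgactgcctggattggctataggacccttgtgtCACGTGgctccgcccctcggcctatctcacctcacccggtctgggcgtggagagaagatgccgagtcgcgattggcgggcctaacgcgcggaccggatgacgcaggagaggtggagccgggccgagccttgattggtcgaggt

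**Figure D3:**
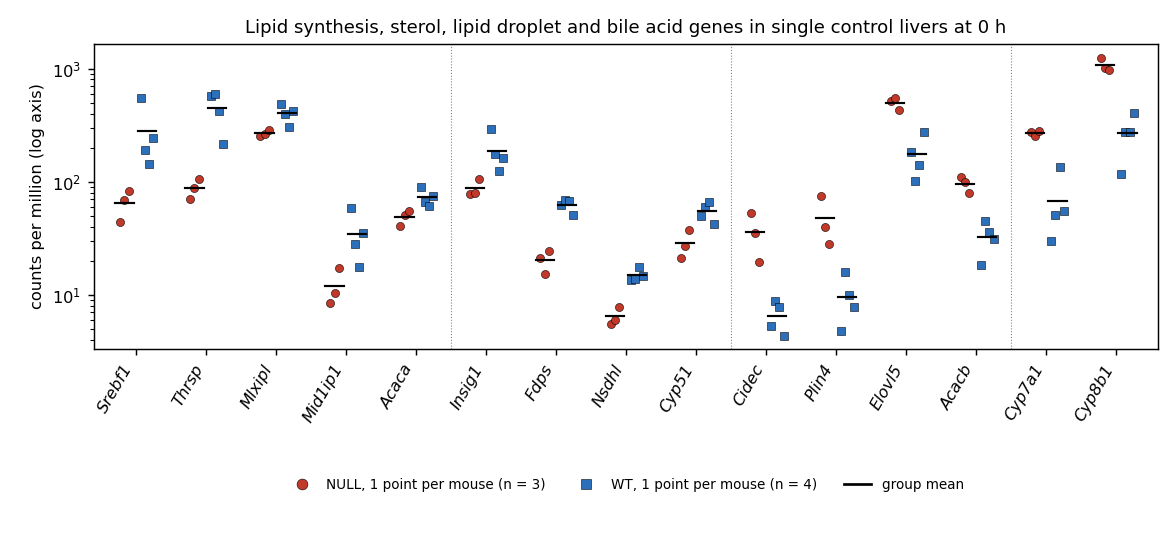
CPM (log axis) in single livers at 0 h, with NULL mice as red circles (n = 3), WT mice as blue squares (n = 4) and black lines at group means; dotted vertical lines separate lipid synthesis regulators, sterol genes, lipid droplet and fatty acid genes, and bile acid synthesis genes. Thrsp lies at 69.6 to 106 in NULL and 214 to 595 in WT livers, and the sterol genes are lower and Cyp7a1 and Cyp8b1 higher in NULL livers, with no overlap between the groups in any gene shown.

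Lipoprotein, bile acid and glucose genes each held called genes in both directions, where 4.54% of all genes were called higher and 3.67% lower. Of 28 lipoprotein and lipase genes tested, 3 (10.7%) were higher and 1 (3.57%) lower, with a median of −0.004. Apoa4, an apolipoprotein that rises with hepatic lipid, was at 890.1, 954 and 282 CPM in NULL and 109, 71.8, 100.5 and 118 CPM in WT livers (2.83 ± 0.37, edgeR adjusted p = 0.00350). NULL mouse 3 was lower than the other NULL mice but above all WT mice. The lipase cofactor Apoc2 (2.30) and the endothelial lipase Lipg (1.77) were higher, while the hepatic lipase Lipc was lower (−0.67). Apoe and Apoa1, the members with the most reads, were not called (edgeR adjusted p = 0.698 and 0.173).

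Of 18 bile acid genes, 3 (16.7%) were called higher and 1 (5.56%) lower. Cyp7a1, the rate-limiting enzyme of bile acid synthesis, was at 273, 251 and 278 CPM in NULL and 29.9, 50.3, 136 and 55.3 CPM in WT livers (1.98 ± 0.41, edgeR adjusted p = 0.0185). Cyp8b1, which directs synthesis to cholic acid, was at 1249.7, 1020.3 and 963 CPM against 116, 274, 277 and 405 CPM (2.01 ± 0.33, edgeR adjusted p = 0.00890). Both genes were higher in every NULL liver than in any WT liver. The bile acid receptor gene Nr1h4 was higher (0.62) and the synthesis enzyme Hsd3b7 was lower (−0.98). Of 23 glucose production and fasting genes, 3 (13%) were higher and 1 (4.35%) lower. The pyruvate carboxylase Pcx (0.83), the alanine transaminase Gpt2 (0.85) and the coactivator Crebbp (0.59) were higher, whereas the glycogen-targeting subunit Ppp1r3g was lower (−2.35). Pck1, the gluconeogenic enzyme with the most reads, was at 6700.4, 7427 and 6584 CPM against 4844, 6607, 4947 and 4691 CPM and was not called (edgeR adjusted p = 0.143).

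Most interferon-stimulated genes, like most of all genes, were not called, and the calls were more often lower than higher in NULL livers. Of 47 interferon-stimulated genes tested (49 in the list), 1 (2.13%) was called higher and 4 (8.51%) lower, against 4.54% and 3.67% of all genes, and the median was −0.112. Bst2, or tetherin, which holds budding virions at the cell surface, was at 80.0, 78.5 and 103 CPM in NULL and 213, 219.9, 191 and 175 CPM in WT livers (−1.19 ± 0.14, edgeR adjusted p = 0.00263). Ly6e, a surface protein with antiviral activity, was at 112, 105 and 117 CPM against 190.0, 187, 420.0 and 250 CPM (−1.23 ± 0.27, edgeR adjusted p = 0.0229). NULL livers were below WT livers in both, with WT mouse 3 above the other mice in Ly6e. Ifi35 (−0.74) and the ubiquitin-like modifier Isg15 (−0.81), the latter at 3.46, 3.45 and 3.01 CPM against 7.21, 6.06, 5.11 and 4.81 CPM, were lower too. The gene called higher was Mx1, a dynamin-like antiviral GTPase, at 1.46, 1.17 and 1.02 CPM against 0.220, 0.200, 0.639 and 0.515 CPM (1.65 ± 0.46, edgeR adjusted p = 0.0481), and its call was lost in the joint fit of the 14 mice at 0 h.

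The uncalled members with the most reads were Stat2, the interferon signalling factor, and Ifi27, a small interferon-induced protein. Stat2 was at 98.4, 97.2 and 76.1 CPM in NULL and 76.7, 98.3, 95.8 and 53.2 CPM in WT livers and Ifi27 at 55.7, 47.3 and 43.9 CPM and 94.4, 63.0, 108 and 49.0 CPM, overlapping in both (edgeR adjusted p = 0.641 and 0.106). Ifit1, an antiviral RNA-binding protein named after its values were seen, was at 9.26, 7.43 and 3.92 CPM against 5.39, 5.33, 8.87 and 4.93 CPM (0.17 ± 0.31, edgeR adjusted p = 0.756), and a difference of this gene was not detectable in 3 against 4 mice. None of 18 nucleic acid sensor and adaptor genes tested was called by edgeR's quasi-likelihood test, and the median was 0.108. Mavs, the adaptor of RNA sensors with the most reads of the list, was at 120.1, 141 and 111 CPM against 111, 117, 115 and 97.8 CPM (0.17 ± 0.12).

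Of 31 interferon-gamma and immunoproteasome genes tested, 1 (3.23%) was called higher and 4 (12.9%) lower, with a median of −0.322. The 4 lower calls became 1, 0 and 0 without NULL mouse 1, 2 or 3, 1 without WT mouse 1 or 2, and 1 in the joint fit of the 14 mice. The immunoproteasome subunits Psmb9, at 10.1, 8.53 and 6.93 CPM against 14.3, 15.6, 14.0 and 16.7 CPM (−0.83 ± 0.17, edgeR adjusted p = 0.0173), and Psmb10 (−0.83), the GTPase Igtp (−1.03) and the factor Irf8 (−0.69) were lower. Nlrc5, the transactivator of MHC class I genes, was higher, at 33.1, 29.2 and 36.9 CPM against 16.0, 15.8, 12.8 and 21.9 CPM (0.99 ± 0.18, edgeR adjusted p = 0.0122). Of 15 MHC genes tested, 0 were higher and 1, the class II chaperone Cd74, was lower (−0.69), with a median of −0.517. That call was lost without NULL mouse 1 or 3 or WT mouse 1 or 2, and 2 genes were called lower without WT mouse 3. B2m, the class I light chain, was at 1353, 1278 and 1379 CPM against 1256, 1209, 1826 and 1315 CPM (−0.07 ± 0.17, edgeR adjusted p = 0.823). H2-K1, a class I heavy chain, was at 916, 507 and 950.4 CPM against 1068, 1194, 1194 and 1244 CPM and was not called (edgeR adjusted p = 0.106). H2 genes resemble each other, so their single levels are uncertain.

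Summed immune and endothelial markers tended to lower values in NULL livers, but the ranges of the groups overlapped in each sum. Kupffer cell and macrophage markers (12 measured, none at 0) summed to 150–257 CPM in NULL and 231–324 CPM in WT livers, and 1 of 12 tested, C1qc, was called lower (−0.71). Sinusoidal endothelial cell markers summed to 257–427 CPM and 423–488 CPM, with 3 of 12, Gpr182, Oit3 and Clec4g, called lower. Monocyte and neutrophil markers summed to 15.5–26.3 CPM and 25.5–40.7 CPM, with 1 of 5 tested called lower. The 3 endothelial calls became 0 without NULL mouse 1 or 3 or WT mouse 1, 2 without NULL mouse 2 and 1 without WT mouse 2, and that of C1qc was lost without NULL mouse 1 or 3 or WT mouse 1 or 2. Erythroid markers, 6 of 10 at 0 in all 7 libraries, summed to 10.7–20.3 CPM in NULL and 21.6–27.3 CPM in WT livers, without overlap. The 1 tested, Alas2, was called lower, also in CRE against KO livers. Its call between NULL and WT was lost without NULL mouse 2 or 3 or WT mouse 1, 2 or 4. The part of these cells in the interferon and MHC differences was not tested.

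Of the 49 interferon-stimulated genes, 34 had a promoter in the table, and the core of the interferon-stimulated response element (ISRE, either strand) was in 18 of their 41 promoters (43.9%), against 3.44% of all promoters. It was in those of Bst2 and Isg15 among the 3 promoters of genes called lower. Both are shown, from chr8:71537473-71537722 and chr4:156200819-156201068 of GRCm38.p6 (minus strand). Capitals mark overlapping matches, from −130 to −115 in Bst2 (2 matches) and from −78 to −57 in Isg15 (3 matches).
Bst2: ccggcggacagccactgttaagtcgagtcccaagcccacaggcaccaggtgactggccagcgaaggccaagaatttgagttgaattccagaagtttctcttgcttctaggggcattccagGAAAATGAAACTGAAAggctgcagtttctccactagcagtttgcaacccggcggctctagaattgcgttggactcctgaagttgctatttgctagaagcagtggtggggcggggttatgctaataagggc
Isg15: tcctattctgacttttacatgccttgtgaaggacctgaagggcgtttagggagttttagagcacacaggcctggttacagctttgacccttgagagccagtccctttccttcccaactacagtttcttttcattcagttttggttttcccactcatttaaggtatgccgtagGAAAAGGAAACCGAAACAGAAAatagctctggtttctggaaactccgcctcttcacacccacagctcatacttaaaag

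Drug-metabolizing enzymes were lower in NULL livers in part, while their receptors were not. Of 12 xenobiotic receptors and partners tested, 3 (25%) were called higher and 0 lower. Nr1i3, which encodes CAR, was at 309.9, 305 and 299.9 CPM in NULL and 119, 64.6, 50.2 and 205 CPM in WT livers (1.47 ± 0.40, edgeR adjusted p = 0.0440). Ahr, the dioxin receptor, was at 58.3, 67.8 and 53 CPM against 17.9, 27.7, 35.3 and 36.3 CPM (1.03 ± 0.22, edgeR adjusted p = 0.0220), and Por, the electron donor of P450 enzymes, was higher (0.82). No NULL liver overlapped a WT liver in these genes. Alas1, the first enzyme of heme synthesis, overlapped between the groups (edgeR adjusted p = 0.840), and NULL mouse 3 was the lowest of the 7 mice in it.

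Of 38 genes of P450 families 1 to 3 tested (46 in the list), 2 (5.26%) were called higher and 6 (15.8%) lower, with a median of −0.262. Cyp1a2, an AHR target that oxidizes APAP, was at 424, 320.3 and 347 CPM in NULL and 819, 854, 764 and 1012 CPM in WT livers (−1.25 ± 0.16, edgeR adjusted p = 0.00327), and the AHR target Cyp1a1 was lower as well (−1.77 ± 0.39, edgeR adjusted p = 0.0236). Cyp2c29 was at 665, 632 and 775 CPM against 2371, 1856, 1695 and 3705 CPM (−1.80 ± 0.27, edgeR adjusted p = 0.00617). In each of these genes, all NULL livers were below all WT livers. Cyp2c70 (−2.72), which makes muricholic acids, Cyp2c55 (−2.88) and Cyp2d40 (−0.87) were lower, whereas Cyp2c39 and Cyp2d9 were higher (2.29 and 0.67). Cyp2e1, the main P450 of APAP bioactivation, was at 9658, 9213 and 7947 CPM against 8488, 6640.1, 7050.1 and 9135 CPM (0.19 ± 0.16, edgeR adjusted p = 0.480), and Cyp3a11 was not called either (−0.00 ± 0.29). The CAR target Cyp2b10, named after its values were seen, ranged from 2.89 to 12.9 CPM in NULL and from 8.97 to 77.4 CPM in WT livers (−1.95 ± 0.70, edgeR adjusted p = 0.101), so the higher Nr1i3 stood beside no called change of it.

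Of 49 conjugation enzymes tested, 0 were called higher and 7 (14.3%) lower, with a median of −0.291. Without WT mouse 4, and likewise with the replicate block, 3 were called higher. Of these 7, 5 were Mu-class glutathione S-transferases. Gstm3 was at 4.69, 3.06 and 7.05 CPM in NULL and 47.9, 60.6, 62.7 and 195 CPM in WT livers (−4.21 ± 0.57, edgeR adjusted p = 0.00386), with WT mouse 4 above the rest. Gstm1 was at 722, 649 and 999 CPM against 1662, 1363, 1286 and 3111 CPM (−1.23 ± 0.32, edgeR adjusted p = 0.0369). Gstm6, Gstm7 and Gstm2 were lower (−1.72, −1.27 and −1.07). The Gstm genes are near-identical neighbours, so their reads may be split among them. The theta-class transferase Gstt1 was lower as well (−0.88). Mgst1 and Gstp1, the uncalled members with the most reads, overlapped between the groups (edgeR adjusted p = 0.892 and 0.328). Of 17 NRF2 target genes tested, 0 were higher and 1, the transaldolase Taldo1, was lower (−0.66).

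Of 36 carboxylesterases, flavin monooxygenases and other phase I enzymes tested, 3 (8.33%) were higher and 7 (19.4%) lower. Akr1c6, a hydroxysteroid dehydrogenase, was at 472, 532 and 474 CPM in NULL and 1263, 1051, 1194 and 1159.5 CPM in WT livers (−1.24 ± 0.13, edgeR adjusted p = 0.00195). Ephx2, a PPAR-alpha-responsive epoxide hydrolase, was at 1888, 1820.2 and 1739.8 CPM against 867, 844, 885 and 952 CPM (1.03 ± 0.12, edgeR adjusted p = 0.00251). Both were tight within the groups and separate between them. Of 23 hepatic transporters tested, 4 (17.4%) were higher and 3 (13%) lower, but without WT mouse 4 these counts were 6 and 7, with the replicate block 5 and 7, and with DESeq2 4 and 6. The bile salt export pump Abcb11 was at 154, 209.9 and 226 CPM against 463, 533, 483 and 424 CPM (−1.27 ± 0.16, edgeR adjusted p = 0.00327), and the phospholipid exporter of bile, Abcb4, at 553, 624 and 589 CPM against 274, 278, 306 and 335 CPM (0.98 ± 0.12, edgeR adjusted p = 0.00327). The carnitine transporter Slc22a5 was higher (1.17) and the related carriers Slc22a28 and Slc22a30 were lower (−1.94 and −1.24).

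**Figure D4:**
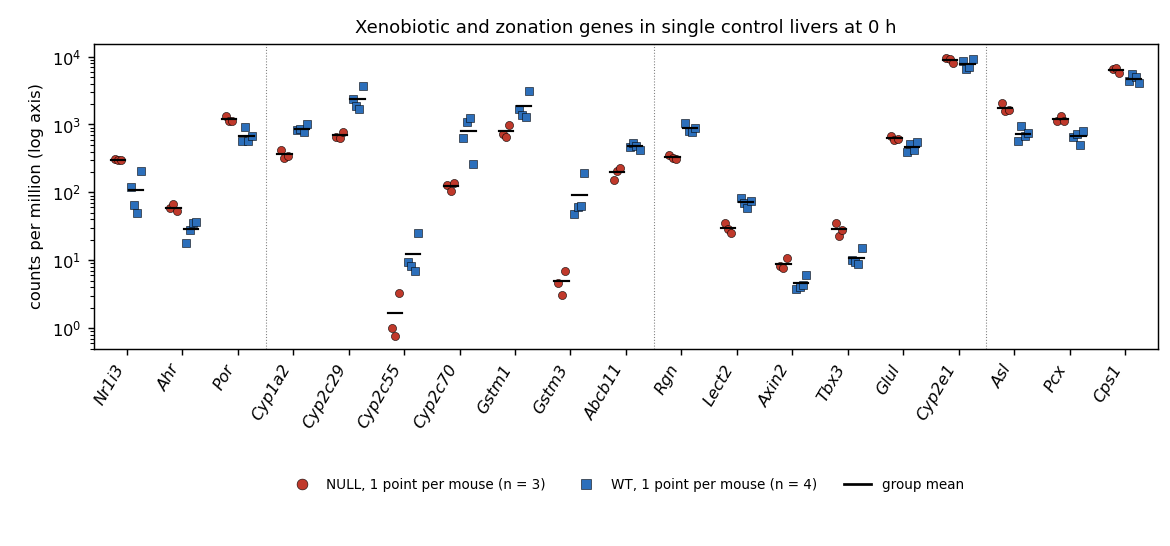
CPM (log axis) of xenobiotic, transporter and zonation genes in single livers at 0 h, with NULL mice as red circles (n = 3), WT mice as blue squares (n = 4) and black lines at group means. Gstm3 lies at 3.06 to 7.05 in NULL and 47.9 to 195 in WT livers, while the groups overlap in Cyp2e1.

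Zonation genes did not move as 1 block. Of 43 pericentral genes tested (44 in the list), 7 (16.3%) were called higher and 9 (20.9%) lower, with a median of 0.005. The Wnt targets and regulators Tbx3, at 35.6, 22.5 and 28.3 CPM in NULL and 10.1, 9.32, 8.95 and 15.2 CPM in WT livers (1.40 ± 0.22, edgeR adjusted p = 0.00692), and Axin2 (0.95 ± 0.22, edgeR adjusted p = 0.0263) were higher. Rgn, or regucalcin, was at 356, 326 and 315 CPM against 1043, 815, 786 and 897 CPM (−1.41 ± 0.15, edgeR adjusted p = 0.00195), and the secreted protein Lect2 at 35.3, 29 and 25.1 CPM against 82.6, 70.6, 59.8 and 73.9 CPM (−1.27 ± 0.16, edgeR adjusted p = 0.00324). These were lower in every NULL liver. The vasopressin receptor Avpr1a and the dicarboxylate carrier Slc13a3 were lower (−1.18 and −0.99) and the taurine synthesis enzyme Csad was higher (0.90); the other 9 called pericentral genes are xenobiotic or bile acid genes given above. Glul, the glutamine synthetase of the innermost pericentral hepatocytes, named after its values were seen, was at 673, 585 and 612 CPM against 389, 523, 418 and 543 CPM (0.41 ± 0.15, edgeR adjusted p = 0.105). Of 13 Wnt and hedgehog signalling genes tested, 1, the receptor Fzd4, was higher (0.89), and 0 were lower.

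Of 37 periportal genes tested, 7 (18.9%) were called higher and 0 lower, with a median of 0.235. Asl, of the urea cycle, was at 2082, 1602 and 1623 CPM in NULL and 578, 934, 667 and 749 CPM in WT livers (1.27 ± 0.18, edgeR adjusted p = 0.00525). The lysolipid transporter Mfsd2a (1.37), the phospho-lyase Etnppl (1.05) and the lipid droplet protein Hsd17b13 (0.60) were higher, and Apoa4, Apoc2 and Pcx belong to this list too. WT mouse 4 was the WT mouse nearest to the NULL livers in 6 of the 7. Cps1, the first urea cycle enzyme, was at 6632, 6716 and 5647 CPM against 4339, 5524, 4973 and 4043 CPM (0.42 ± 0.16, edgeR adjusted p = 0.108). Ass1, also of the urea cycle, had at most 0.241 CPM in any of the 7 libraries and was not tested. Only uniquely mapped reads were counted and reads shared by genes were left out, so this value does not show that Ass1 was silent. Of 8 midlobular genes, 2 (25%) were higher, Cyp8b1 and Igfbp2, the latter at 1028, 1072 and 1099 CPM against 453, 406, 424 and 806 CPM (1.03 ± 0.23, edgeR adjusted p = 0.0248). The call of Igfbp2 was lost without any 1 of the NULL mice or WT mouse 1 or 2.

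The largest rises and falls lay partly outside these programs. Cux2, a transcription factor gene with female-biased expression in mouse liver, was at 13.2, 17.1 and 39.6 CPM in NULL and 0.385, 0.666, 0.320 and 1.37 CPM in WT livers (5.03 ± 0.51, edgeR adjusted p = 0.00195). All mice were male. Of 12 female-biased liver genes tested, 4 (33.3%), Cux2, Cyp17a1, Fmo2 and Trim24, were called higher and 0 lower. The median of that list by mouse, on the scale used for the PPAR-alpha list, was 1.06, 0.85 and 0.71 in the NULL mice and −0.49, −0.19, −0.59 and 0.72 in WT mice 1 to 4, so that WT mouse 4 lay with the NULL mice. The 4 calls became 2, 1 and 2 without NULL mouse 1, 2 or 3, 2 without WT mouse 1 and 6 without WT mouse 4, and in the CRE and KO knockout livers 1 gene of this list was called higher and 1 lower. Of 31 male-biased liver genes tested, 2 (6.45%) were called higher and 2 (6.45%) lower, with a median of −0.352. Of these, 0 were called higher without NULL mouse 1 or 2 and 5 lower without WT mouse 4, and the median ran from −0.583 to 0.242 over the alternatives, with its sign kept in 18 of 20. By mouse, the median of that list was −0.42, −0.40 and −0.42 in the NULL mice and −0.60, 0.20, 0.71 and −1.65 in WT mice 1 to 4, with WT mouse 4 below all others. Osbpl3, an oxysterol-binding protein, was at 24.8, 19.5 and 24.6 CPM against 1.32, 1.13, 1.04 and 3.15 CPM (3.76). The other large rises included Cyp4a10, Cyp4a31 and the following genes at low levels: Pkdrej (4.79), Adam2 (3.30), 1700039E15Rik (3.07), E030018B13Rik (2.99) and Gm15441 (3.49). Gm15441 lies antisense to Txnip, and reads that overlap both genes count as ambiguous and were left out of these counts. The 2 stranded columns held similar totals, 8931874 and 8777932 reads in NULL mouse 1, so they can assign Txnip reads to Gm15441. In these columns its log2 fold change was 0.49 and 0.44, and it was not called.

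Among the largest falls beside Gstm3 were Nr4a1, an immediate-early nuclear receptor, at 2.34, 5.15 and 2.95 CPM against 98.3, 13.2, 9.42 and 13.4 CPM (−3.28 ± 0.88, edgeR adjusted p = 0.0428), and Cyp26a1, which degrades retinoic acid, at 1.87, 2.80 and 3.01 CPM against 40, 26, 14.1 and 15.5 CPM (−3.22 ± 0.40, edgeR adjusted p = 0.00324). Of 25 immediate-early genes tested, 0 were called higher and 6 (24%) lower, Nr4a1, Fos, Dusp1, Junb, Maff and Btg2, with a median of −0.598. These 6 calls became 0 without NULL mouse 1 or 3, 4 without NULL mouse 2 or WT mouse 1 and 2 without WT mouse 2, and 2 with an offset for length and GC content. Of the other largest falls, the thyroxine-binding globulin gene Serpina7 (−3.59) and the chemokine Cxcl1 (−3.22) were called as well. Rpl29, a ribosomal protein gene, was at 5.86, 4.30 and 8.07 CPM against 113, 90.7, 13.7 and 112 CPM, with WT mouse 3 far below the other WT mice. Upk3b (−3.47) is a mesothelial marker, and mesothelium markers summed to 1.04–8.07 CPM in NULL and 12.5–18.3 CPM in WT livers, with none of 6 at 0 throughout. S100a9 (−4.0), a neutrophil marker, and Bglap3 (−3.17) were below 4 CPM in all 7 libraries. The pancreas marker Cela1 was at 8.55, 9.38 and 8.86 CPM against 48.0, 54.9, 44.5 and 37.6 CPM (−2.37 ± 0.16, edgeR adjusted p = 0.000272), while 9 of the 14 pancreas markers were at 0 in all 7 libraries.

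Transcript length moved with the comparison. From the shortest to the longest quartile of genes by exon length, the median log2 fold change was −0.215, −0.074, 0.042 and 0.172, and 82, 94, 141 and 243 genes were called higher against 240, 110, 75 and 28 lower. With an offset for length and GC content, an alternative added after the data were seen, 793 genes were called, 673 of them among the 1020. Under that offset, the calls were 22 higher of the PPAR-alpha list, 6 lower and 8 higher of fatty acid synthesis, 7 lower of cholesterol synthesis, 6 lower of P450 families 1 to 3, 5 lower of conjugation enzymes and 9 higher of periportal genes. Of the interferon-stimulated genes, 2 were then called lower, and of the interferon and MHC genes named, Isg15, Ifi35, Psmb10, Igtp and Cd74 lost their calls. The calls of Gstm1, Gstt1, Fmo2, Taldo1, Mid1ip1, Mvd, Acat2, Acot4, Hadhb, Lipc, Crebbp, Fzd4 and Slc13a3 were lost too, as were those of the immediate-early genes Nr4a1, Fos, Dusp1 and Btg2 and of the markers C1qc, Oit3, Clec4g and Alas2.

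The cohorts were also contrasted in the knockout livers at 0 h, which share no mouse with the controls. They were 3 HKO livers, made with AAV8-TBG-Cre and labelled CRE, and 4 LKO livers, made with Alb-Cre and labelled KO. In the paper, LKO livers lacked E2f7/E2f8 lifelong and were mostly diploid, while HKO livers lost them as adults and stayed mostly polyploid. Ploidy and the time of deletion thus change with the cohort in this contrast and cannot be told apart from it. Here, 813 of 12653 genes (6.43%) were called, 395 (3.12%) higher and 418 (3.3%) lower in CRE livers. Of 557 genes called higher in NULL livers and tested in both, 213 were called higher in CRE livers (38.2% of the former and 54.3% of the latter calls), and of 455 called lower, 182 were called lower (40% and 43.9%). The sign was shared by 96.6% and 96.5% of them, where 50% of all genes had either sign, and no gene was called in opposite directions. Transcript length moved with this contrast too, with medians of −0.226, −0.061, 0.059 and 0.19 from the shortest to the longest quartile. Reads on no feature made up 13.1% to 14.7% of CRE and 8.47% to 10.7% of KO libraries. The part of these library features in the shared calls was not tested. Of 118 called genes of the lists plotted, 115 had the same sign and 74 were called in both; Avpr1a, Hsd17b13 and Lipg had the opposite sign.

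By program, the calls in CRE against KO livers were 22 higher and 0 lower for the PPAR-alpha list (median 0.752), 2 and 6 for cholesterol synthesis (median −0.655), 5 and 8 for fatty acid synthesis, 1 and 4 for interferon-stimulated genes, 1 and 8 for P450 families 1 to 3, 0 and 13 for conjugation enzymes, 4 and 8 for pericentral and 4 and 1 for periportal genes. Not all medians had the sign seen in the controls. The median was −0.127 for periportal genes against 0.235 in the controls, 0.015 for interferon-gamma and immunoproteasome genes against −0.322, and 0.132 for acute-phase genes, of which 0 were called lower, against −0.444. Ehhadh was at 2864, 2431 and 1964 CPM in CRE and 287, 470.3, 402 and 413 CPM in KO livers (2.62 ± 0.20, edgeR adjusted p = 0.000540). Bst2 was at 93.2, 76.3 and 105 CPM against 257, 203, 181 and 281 CPM (−1.33 ± 0.19, edgeR adjusted p = 0.00713) and Gstm3 at 10.4, 5.54 and 7.25 CPM against 65.4, 144, 55.3 and 66.2 CPM (−3.42 ± 0.38, edgeR adjusted p = 0.00326). For each, the groups separated in the direction seen in the controls. Cux2 was at 1.42, 1.63 and 1.28 CPM against 0.349, 1.5, 0.814 and 3.03 CPM, and the difference of its 2 fold changes was 5.03 ± 0.83 (edgeR adjusted p = 0.100). In the test of the difference between the 2 cohort contrasts over 12945 genes, edgeR's quasi-likelihood test called 0 genes, limma-voom 0 and DESeq2 21, and 579 genes (4.47%) had an unadjusted p under 0.05. That the contrasts are equal is not shown by this.

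**Figure D5:**
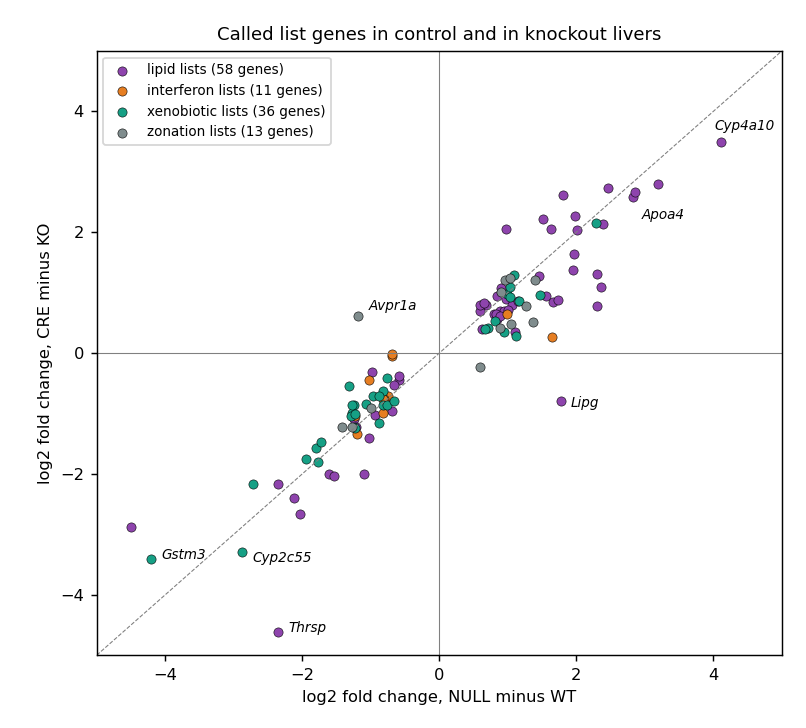
Log2 fold change of NULL against WT livers (horizontal axis) and of CRE against KO livers (vertical axis) for the called genes of the lipid, interferon, xenobiotic and zonation lists (colours), 1 point per gene, with lines at 0 and at equality. Of 118 genes, 115 lie in the quadrants of equal sign.

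Single mice weighed on the number of calls. The total of 1020 became 242, 233 and 485 without NULL mouse 1, 2 or 3 and 619 and 655 without WT mouse 1 or 2, and 1209 and 1372 without WT mouse 3 or 4. The 21 PPAR-alpha calls became 10, 10 and 14 without NULL mouse 1, 2 or 3, 15 without WT mouse 1, 15 without WT mouse 2, 20 without WT mouse 3 and 25 without WT mouse 4. The 8 lower cholesterol genes became 2 without NULL mouse 1 or 2, 4 without NULL mouse 3, 5 without WT mouse 1 or 2 and 9 without WT mouse 4. The 7 lower fatty acid synthesis genes became 2 without any 1 of the NULL mice and 4 without WT mouse 1 or 2, and the 8 higher became 3 and 4 without NULL mouse 1 or 2. The 3 higher glucose genes became 0 without any 1 of the NULL mice or WT mouse 1, 1 without WT mouse 2, and 5 without WT mouse 4. The 7 lower conjugation enzymes became 3 without NULL mouse 1 or 2. The 4 lower interferon-stimulated genes became 1 without any 1 of the NULL mice, and the 1 higher became 0 without any 1 of them or without WT mouse 1 or 2. The 3 higher xenobiotic receptors became 0 without any 1 of the NULL mice and 1 without WT mouse 1 or 2, and the 7 higher pericentral genes became 1, 1 and 2, and 3 without WT mouse 2, while the 9 lower became 5, 6 and 5. The 7 higher periportal genes became 3, 3 and 4 without NULL mouse 1, 2 or 3, and without WT mouse 4, 2 periportal genes were called lower (1 in the joint fit, 1 with the replicate block and 1 with DESeq2). The 6 lower P450 genes became 2 without NULL mouse 1 or 2, and the 2 higher became 0 without any 1 of the NULL mice, 1 without WT mouse 1 and 4 without WT mouse 4. The 7 lower genes among carboxylesterases and other phase I enzymes became 3 without any 1 of the NULL mice, and the 3 higher became 1 without any 1 of them or without WT mouse 1 or 2, and 1 in the joint fit. The 3 lower transporters became 1, and the 4 higher 2, without NULL mouse 1 or 2. The 3 higher bile acid genes became 1 without any 1 of the NULL mice or WT mouse 2. Of the nucleic acid sensors and adaptors, 3 were called lower without WT mouse 4, and 2 with DESeq2. The calls of Lipc and of Fzd4 were lost without any 1 of the NULL mice or WT mouse 1 or 2, and also without WT mouse 4 for Lipc and WT mouse 3 for Fzd4. Among single genes, the log2 fold change of Nr4a1 became −1.79 without WT mouse 1, that of Gstm3 −3.53 and that of Cyp2c55 −2.27 without WT mouse 4, and that of Cux2 4.42 without NULL mouse 3 and 5.64 without WT mouse 4. The call of Lipg was lost without NULL mouse 1 or 2 (1.10) or WT mouse 2, that of Adam2 without NULL mouse 1 (2.65), and that of E030018B13Rik without any 1 of the NULL mice (2.12 without NULL mouse 1) or WT mouse 1. The call of S100a9 was lost without any 1 of the NULL mice, that of Cxcl1 without NULL mouse 1 or 2, and that of Upk3b without NULL mouse 1 (−2.88) or 2 or WT mouse 1 or 2. Of 137 called genes named here or in the closing observations with a value in all 7 of these fits, 43 kept the call in each, and 49, 57 and 68 did without NULL mouse 1, 2 or 3, and 88, 86, 126 and 129 without WT mouse 1, 2, 3 or 4. The log2 fold changes of Ehhadh, Cpt1a, Fdps, Bst2, Cyp1a2, Gstm3, Rgn and Asl passed the call in all of these fits.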

How the data were processed

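Liver polyA RNA of single mice was sequenced, and raw counts per gene were deposited by the authors, who trimmed reads with Trimmomatic and aligned and counted them with STAR on mm10, keeping uniquely mapped reads. Each deposited table holds counts for 24411 genes and 4 entries that name no gene, among them reads on no feature (8.85% to 14.6% over the NULL and WT libraries), which were left out. The column that disregards strand was used. In it, reads that overlap several genes count as ambiguous and were left out, so overlapping and antisense genes are counted on unshared sequence only.

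Groups followed the labels. NULL was compared with WT, CRE with KO, and the 2 differences with each other, by edgeR 4.0.16 (R 4.3.3) with TMM scaling, filterByExpr and the two-sided quasi-likelihood F-test, which takes its spread over mice. Genes were called at a Benjamini-Hochberg adjusted p under 0.05 over all genes tested and a fold change of at least 1.5. Levels are CPM on TMM-scaled totals. With 12665686 to 17807057 counted reads per library, 3 counts, taken as the floor per library, were worth 0.168 to 0.237 CPM, which covers counting error only.

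The genes named were E2f7, E2f8 and Gt(ROSA)26Sor, the 10 largest rises and the 10 largest falls among called genes whose groups did not overlap and whose higher group averaged at least 1 CPM, the called and most abundant uncalled members of each list, at most 8 in full, and cell type markers. Some genes that met this rule are not reported here. The members and lists were chosen with earlier results of these data known. Lists were described by counts and medians, with no test. Coordinates came from GENCODE vM21 (GRCm38), which held 98.4% of the gene symbols, and promoters from RefSeq (GRCm38.p6, 32851 promoters of 27025 genes).

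Alternatives were DESeq2 1.42.0, limma-voom (limma 3.58.1), other scalings, other filters, no fold limit, each stranded column, a joint fit of the 14 mice, a replicate block, each mouse left out and, chosen after seeing the data, an offset for length and GC content. Tested on simulated data of 12431 genes with 200 changed, the edgeR comparison of NULL with WT called 54.5% of the 2-fold and 94.5% of the 4-fold changes, with 7 false among 158 calls. Figures were drawn with matplotlib 3.10.9 in Python 3.11.15.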

Additional observations from a re-analysis of the deposited data

Results flagged for a closer look

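In the WT group, 1 mouse stood apart from the other 3 for 16 of the 164 genes examined, where chance gives about 1 in 20. The measure was the gap between that mouse and its nearest neighbour, divided by the range of the group. The NULL group, with 3 mice, was not examined. WT replicate 4 accounted for 11 of the 16 genes, WT replicate 3 for 3, and WT replicates 1 and 2 for 1 each. No explanation was tested for any of them.

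WT replicate 4 was the highest mouse for several lipid and xenobiotic genes. The gap was 0.871 of the range for Cyp4a14, a fatty acid ω-hydroxylase, which stood at 388 CPM against 50.7 in the next mouse. It was 0.864 for Cyp2c55, a cytochrome P450, at 25.4 against 9.52 CPM. It was 0.900 for the glutathione transferase Gstm3, at 195 against 62.7 CPM, and 0.870 for the flavin monooxygenase Fmo2, at 27.3 against 13.3 CPM. Igfbp2, which binds insulin-like growth factors, had a gap of 0.883 and stood at 806 against 453 CPM. Osbpl3, a lipid-binding protein, had a gap of 0.866 (3.15 against 1.32 CPM), and the neutrophil gene S100a9 one of 0.937 (3.32 against 0.879 CPM). The adipocyte gene Adipoq was read in this WT mouse alone, so that its gap was 1.000, at a level of 0.0573 CPM that lies under the floor.

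The same mouse was the lowest for 3 genes. The gap was 0.932 for the immediate-early phosphatase Dusp1 (113 against 267 CPM). It was 0.869 for the interferon-stimulated gene Ifi35 (25.3 against 31.3 CPM) and 0.928 for the transporter Slc22a28 (6.87 against 23.7 CPM).

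WT replicate 3 was the lowest mouse for Fabp1, the liver fatty acid binding protein, at 719 CPM with a gap of 0.946. It was the highest for Pdk4, a kinase that inhibits pyruvate dehydrogenase, with a gap of 0.871 (7.51 against 4.75 CPM), and for Ifit1, an interferon-stimulated gene, with a gap of 0.882 (8.87 against 5.39 CPM). WT replicate 1 was the highest for the immediate-early gene Nr4a1, with a gap of 0.955 (98.3 against 13.4 CPM). WT replicate 2 was the highest for Pck1, the gluconeogenic phosphoenolpyruvate carboxykinase, with a gap of 0.866.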

How the results depend on the processing

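The count of genes called between NULL and WT was 1020, and 793 to 1403 under the 13 settings that kept every mouse. It was 1403 with DESeq2 (1005 of the 1020 genes kept), 1368 without the fold limit, and 793 with the length and GC offset (673 kept). Leaving out 1 mouse gave 233 to 1372 genes, with 242 without NULL replicate 1, 233 without NULL replicate 2, 485 without NULL replicate 3, 619 without WT replicate 1 and 655 without WT replicate 2, each from fewer mice. The CRE and KO comparison gave 813 genes, 1251 with DESeq2, and 169 to 925 with 1 mouse left out (224, 169 and 257 without CRE replicates 1, 2 and 3, and 276 without KO replicate 4). With library size alone, 38.3% of its calls were higher against 48.6%. For the difference between both comparisons, edgeR called 0 genes, with 579 at an unadjusted p under 0.05, DESeq2 called 21, the filter of at least 1 count 2 and the replicate block 1, and leaving out 1 mouse called 0 to 3. Mice with the same number in NULL and WT did not deviate together (correlations of -0.168, 0.118 and -0.161), so numbers did not pair mice. With the replicate block 912 genes were called between NULL and WT, 666 of them among the 1020. Of 3212 values of 162 named genes under the 20 settings, 2704 kept their side of the threshold, 501 lost the call and 7 gained it. No called gene changed sign, while 7 uncalled genes (Alas1, Apoe, B2m, Cyp3a11, Gt(ROSA)26Sor, Ifit1 and Mgst1) did in at least 1 setting. Depth limits genes near the floor of 0.168 to 0.237 CPM. The causes of the moved counts were not tested.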

Other observations

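Among acute-phase genes, which the liver secretes in inflammation, 1 of 33 tested (3.03%) was called higher in NULL than in WT by edgeR and 5 (15.2%) lower. Over all genes these shares were 4.54% and 3.67%. The median log2 fold change was -0.44 against -0.01 over all genes. The 5 lower calls became 0 without any 1 of the NULL mice or WT mouse 2, 4 without WT mouse 1, 3 without WT mouse 3 and 9 without WT mouse 4. Apcs, the serum amyloid P component, stood at 90.6, 70.5 and 74.8 CPM in NULL and at 196, 145, 277 and 94.6 CPM in WT (log2 fold change -1.18 ± 0.31 SE, edgeR adjusted p = 0.0394). Steap4, a metalloreductase, fell from 60.7 to 205 CPM over the WT mice to 31.9 to 45.0 CPM over the NULL mice (adjusted p = 0.0279 by edgeR). The gene called higher was Il1rn, the interleukin-1 receptor antagonist (4.76 to 9.61 against 1.43 to 3.78 CPM). The calls of Apcs, Steap4 and Il1rn were lost without any 1 of the NULL mice and without WT mouse 2, and those of Apcs and Il1rn also without WT mouse 1 (for Il1rn, WT mouse 3 too) and with the length and GC offset.

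Of 22 circadian clock genes tested, 2 (9.09%) were called higher by edgeR and 3 (13.6%) lower, against 4.54% and 3.67% of all genes. The labels give no clock time of harvest. DESeq2 gave 4 and 5 and the replicate block 5 and 3. The higher calls became 0 without NULL mouse 2, 1 without NULL mouse 1 and 4 without WT mouse 4, and the lower became 0 without NULL mouse 1, 1 without NULL mouse 2 and 2 without NULL mouse 3 or WT mouse 4. Per3, a period gene, stood at 61.3, 67.6 and 67.5 CPM in NULL and at 19.9 to 42.7 CPM in WT (adjusted p = 0.021 by edgeR). Bhlhe40, a transcriptional repressor of the clock, stood at 86.0, 113 and 67.1 CPM in NULL and at 156 to 256 CPM in WT (adjusted p = 0.00966 by edgeR). The call of Per3 was lost without any 1 of the NULL mice and that of Bhlhe40 without NULL mouse 1, and both were lost in the joint fit of the 14 mice. Of 22 genes of the endoplasmic reticulum and integrated stress responses, 2 (9.09%) were called higher and 1 (4.55%) lower. Their median was -0.515, with 18 negative log2 fold changes. Without WT mouse 4, 11 were called lower, with the replicate block 7 and with DESeq2 4. The lower gene was Chac1, which degrades glutathione, at 2.40, 3.06 and 1.69 CPM in NULL and 9.28 to 25.5 CPM in WT (log2 fold change -2.86 ± 0.36 SE, edgeR adjusted p = 0.00327), and its call held in all 20 settings. Of 79 cytosolic ribosomal protein genes, a group chosen after the values were seen, 0 were called higher and 4 lower by edgeR, against 3.67% of all genes (5.06% of the group), and 75 had a negative log2 fold change, as did 6367 of all 12431 genes. The 4 lower became 0 without NULL mouse 1 or 2, 8 without WT mouse 3 and 9 without the fold limit. With the length and GC offset, 1 was called higher and 1 lower.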
